A study of Mus musculus with 6 samples.

Results

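The Rab genes encode small GTPases of vesicle traffic, and they were read here in poly-A RNA of neutrophils taken from the dura mater, the outermost meningeal layer, of mice. Members were the protein-coding genes whose symbol is Rab followed by a number with an optional letter, or Rabl followed by a number, so that effectors and exchange factors were left out. The deposited counts cover 21955 genes, of which 62 had such a symbol, and 50 of these had at least 10 counts in 3 or more libraries. The mice were wild-type, and a social threat preceded the making of every library. The libraries formed 2 groups, 3 labelled male and 3 labelled female, which shared genotype, cell type and exposure. The labels give neither age nor strain, and no library from unexposed mice was analysed here.

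A Rab protein switches between a GDP-bound form held in the cytosol and a GTP-bound form on a membrane. Exchange factors load it with GTP, GTPase-activating proteins end the signal, and effectors bound to the active form tether, move or fuse the vesicle. Each Rab marks its own compartments, from the endoplasmic reticulum and Golgi to endosomes, phagosomes and lysosomes. Neutrophils are known for carrying preformed granules, and Rab27a is the member best known for their release.

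Totals ranged from 17098026 to 20778410 counts per library. The Y-linked genes Ddx3y, Eif2s3y, Kdm5d and Uty summed to between 306.6 and 317.9 CPM (counts scaled to a common library size) in libraries labelled male and between 312.1 and 327.9 CPM in those labelled female. Their expression contradicts the label female in each of its 3 libraries, so groups are named by their labels and a direction is one between libraries so labelled. Neutrophil markers were abundant, with S100a8 at 10100 ± 346.9 and 12030 ± 1701 CPM and Ly6g at 167 ± 12.4 and 237 ± 35.8 CPM (labelled male and labelled female, SD, n = 3). The labels do not state whether each library had its own animals, so the spread behind the p-values is that of these libraries and may be technical. Female replicate 3 stood apart from the other libraries labelled female (chi-square per degree of freedom 14.1 and 17.4, against 5.33 between those), and values without it are given where a call depends on it. In bulk RNA, fewer cells of a type and less RNA per cell cannot be told apart.

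Of the 50 members, 49 passed the filter on low counts and were tested, and Rab25 did not. At an adjusted p under 0.05 (edgeR's quasi-likelihood test with Benjamini-Hochberg adjustment over 11903 genes), 15 members were higher in the libraries labelled female, where 7.29% of all tested genes were. They were Rab23, Rab20, Rab6a, Rab5b, Rab11a, Rab32, Rab3d, Rab8b, Rab5a, Rab18, Rab5c, Rab7, Rab27a, Rab1a and Rab21. Rab30 and Rab7b, 2 of the 49, were lower, where 6.62% of all tested genes were. The higher members made up 30.6% and the lower ones 4.08% of those tested. Most changes were small: 13 of the 15 increases lay between 1.13-fold (Rab21) and 1.28-fold (Rab6a), and Rab20 (1.78-fold) and Rab23 (2.15-fold) exceeded them. The median log2 fold change was 0.07 over the 49 members and 0.0016 over all tested genes.

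Increases were read against all genes in the same broad range of abundance. With the genes split at a mean of 5 log2 CPM, a value chosen after the data were seen, 13 of 26 members at or above it were higher, against 12.9% of all 5418 tested genes at that level. In that range 24 of 26 members had a positive log2 change, as did 57.8% of all genes, and the medians were 0.18 and 0.03. The count of positive members depends on where the split was set. Rab33b (4.976 log2 CPM, log2 change -0.10) and Rab29 (4.96 log2 CPM, log2 change -0.08), neither past the test, lay just under it. None of these 26 was lower by edgeR, DESeq2 or limma-voom, with 2 at an unadjusted p under 0.05, where 8.69% of all genes at that level were lower. Below 5 log2 CPM, 2 of 23 members were higher (Rab23 and Rab20) and 2 lower (Rab30 and Rab7b), and 9 had a positive log2 change. Of all 6485 tested genes under that level 2.61% were higher, 4.89% lower and 44.1% positive, against 8.7% of members each way, a share that rests on 2 genes each. Every library labelled female lay above every one labelled male in 20 members, 40.8% of those tested, where 15.9% of all tested genes did so. All 3 lay below in 6 members, 12.2%, where 15% of all tested genes did so.

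**Figure D1:**
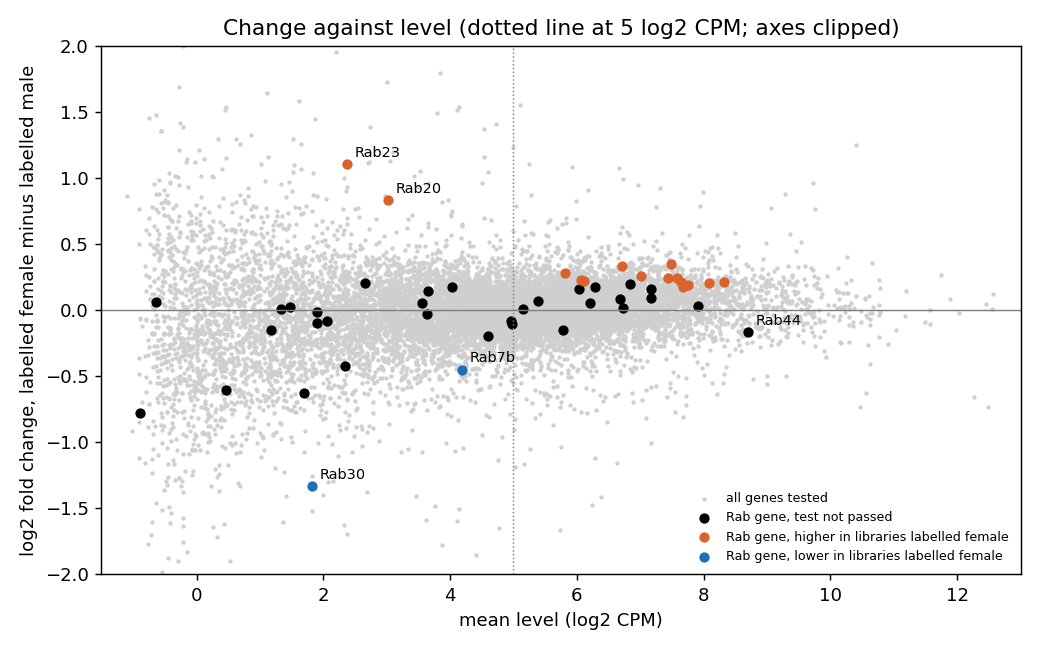
Log2 fold change (libraries labelled female minus those labelled male) against mean level in log2 CPM, with all 11903 tested genes in grey and the 49 tested Rab genes as larger points; the axes are clipped. Orange points, the 15 higher members, lie to the right of the dotted line at 5 log2 CPM except Rab23 and Rab20, and the lower members Rab30 and Rab7b lie to its left.

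The counts depended on the libraries entered. Higher members numbered 10 without male replicate 1, 6 without male replicate 2 and 6 without male replicate 3, where 4.17%, 4.03% and 3.64% of all tested genes were higher. Without female replicate 1, 2 or 3 they numbered 10, 11 and 17, where 5.01%, 5.37% and 11.9% of all tested genes were higher. Lower members numbered 1 without male replicate 1 (4.33% of all tested genes were lower) and 3 without female replicate 3 (10.5%). They numbered 2 without male replicate 2 or 3 (4.12% and 3.87% of all tested genes) and without female replicate 1 or 2 (4.72% and 4.32%). Of the 17 called members, 5 passed in each of the 6 fits that left out 1 library: Rab23, Rab20, Rab6a, Rab5b and Rab30.

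Other measures differed between the same groups. The share of counts from mitochondrially encoded genes was 11.99 ± 1.23% in libraries labelled male and 7.43 ± 1.04% in those labelled female (SD, n = 3). With those genes removed before library sizes were computed, 15 members were again higher (7.01% of all tested genes) and 2 lower (7.05%), and these were the same 17 genes. Of 11 neutrophil marker genes tested 8 were higher and none lower by edgeR, DESeq2 or limma-voom, also at an unadjusted p under 0.05, and their summed level was 56520 to 62530 CPM in libraries labelled male and 63430 to 81750 CPM in those labelled female. Among the neutrophil markers called, log2 changes ran from 0.25 (S100a8) to 1.25 (Retnlg), and Camp, Ltf and Ngp did not pass. Of 5 neutrophil progenitor markers none was higher and 1 was lower (Mpo, log2 -0.21, adjusted p = 0.0315 by edgeR). Their sums were 4372 to 4441 CPM in libraries labelled male and 3974 to 4344 CPM in those labelled female. Of 8 monocyte and macrophage markers 2 were higher, with sums of 915.1 to 983.3 and 1144 to 1282 CPM. Of 6 erythroid markers 3 were higher, with sums of 18.29 to 23.84 and 33.63 to 64.17 CPM and a median log2 change of 1.30. The part of these measures in the Rab increases was not tested.

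Read per kilobase of exon, the scale used here to set genes against each other, the summed level of the 62 genes was 1045 ± 18.4 CPM per kb in libraries labelled male and 1157 ± 27.9 CPM per kb in those labelled female (SD, n = 3). The 5 highest members, Rab7, Rab5c, Rab44, Rab27a and Rab2a, held 39.7 ± 0.398% and 39.2 ± 0.407% of these sums. Rab7, the Rab of late endosomes and lysosomes, led with a mean of 123 CPM per kb over the 6 libraries. Rab5c, of early endosomes, followed with 91.4, and Rab44, a large Rab with EF-hand motifs, with 82.3 CPM per kb. Rab27a stood at 69.7 and Rab2a, of the Golgi, at 67.6 CPM per kb. The order of Rab5c and Rab44 differed between the group means: Rab44 had 87.2 and Rab5c 84.7 CPM per kb in libraries labelled male, against 77.5 and 98.2 CPM per kb in those labelled female. Male replicate 1, with Rab44 at 84.56 and Rab5c at 84.7 CPM per kb, had the order of the libraries labelled female. With the longest transcript in place of all annotated exons the first 4 kept their order, and Rab2a moved from rank 5 to rank 6. Rab14, named because of its values, moved from rank 21 to rank 10.

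**Figure D2:**
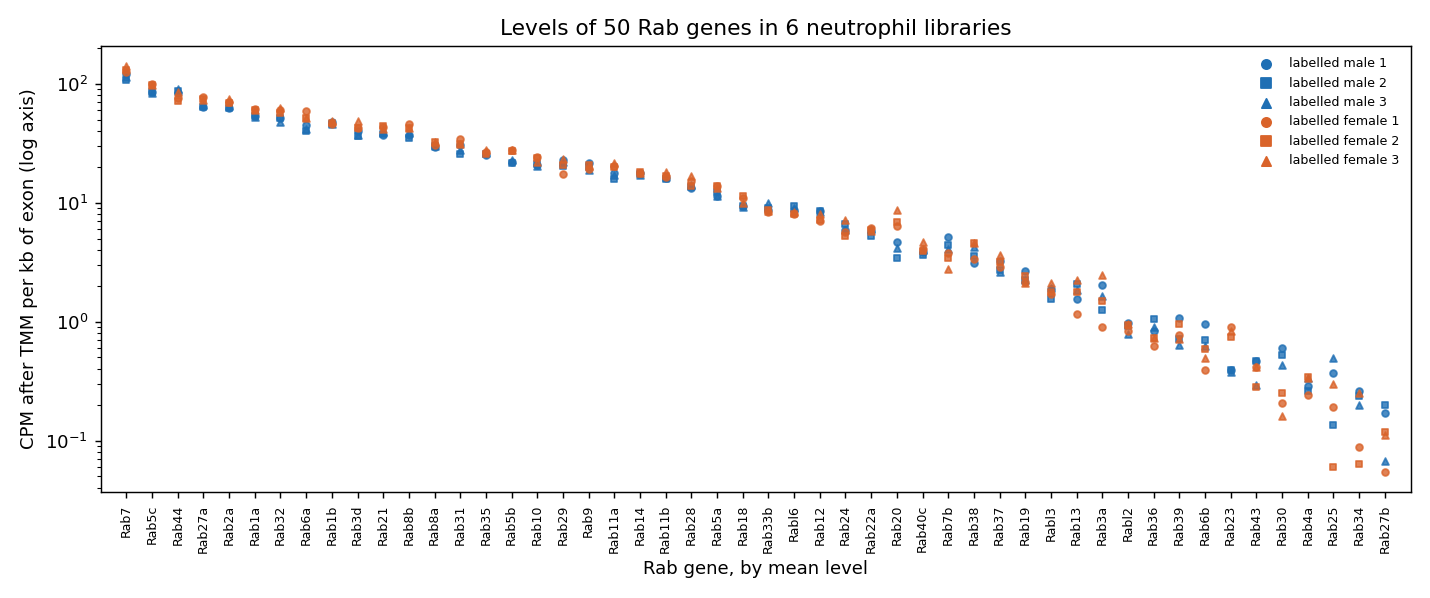
Level of each of the 50 Rab genes in each library, in CPM after TMM per kilobase of exon on a log axis, ordered by mean level; colour marks the label and shape the replicate number. Levels run from 123 CPM per kb for Rab7 to 0.12 CPM per kb for Rab27b, and the 6 libraries of the abundant genes lie close together.

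At the other end, 12 genes fell below the minimum. Rab9b had no count in any library, where 3 counts is the limit that a count of 0 allows, and Rab3c had 1 count in all. Just inside were 3 members that reached 10 counts in exactly 3 libraries. Rab4a, a Rab of fast endosomal recycling, had 9, 8 and 10 counts in libraries labelled male and 8, 12 and 12 in those labelled female. Rab25, of epithelial recycling, had 11, 4 and 14 against 6, 2 and 10 counts, and Rab34 had 11, 10 and 8 against 4, 3 and 12 counts. Just outside were Rab4b, with 8, 6 and 5 against 8, 15 and 12 counts, and Rab15, with 11, 6 and 6 against 4, 8 and 15 counts. Of Rab4b's exon length 65% is shared with another annotated gene on the same strand, so its counts are uncertain.

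Promoter windows of RefSeq (GRCm38.p6) were matched by symbol to 40 of the 50 members and to 14 of the 15 higher ones. Neither lower member, Rab30 or Rab7b, had a window, so they were not searched. The other tested members below are therefore all ones that did not pass the test. The 250 bases before each start site were searched on both strands for 5 motifs. These were the E-box (CACGTG), the core of the interferon-stimulated response element (GAAA, any 2 bases, GAAA), an ETS core (CCGGAAG), the CCAAT box (CCAAT), and the CLEAR element described for lysosomal genes (CACGTG with GT directly before it and AC directly after it). The last was added after the first 4 had been read, and it contains the first. CACGTG was found in 5 of the 14 higher members, in none of 25 other tested members and in 6.86% of 27025 genes with a window. CCAAT was found in 8 of the 14, in 12 of the 25 and in 37.5% of all genes. CCGGAAG was found in 1 and 2 (7.83% of all genes), and the interferon element in 0 and 1 (3.46%). The CLEAR element was found in 2 higher members, Rab21 and Rab5a, in none of the other 25 and in 0.27% of all genes. These are matches of letters, with no measure of binding, and no test was made. The stretches around CACGTG are shown because this motif separated the lists most, with the motif in capitals, 5′ to 3′ on the strand of the gene.
Rab20, chr8:11478651-11478716, minus strand: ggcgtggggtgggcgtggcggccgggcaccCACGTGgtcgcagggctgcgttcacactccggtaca
Rab21, chr10:115315592-115315651, minus strand: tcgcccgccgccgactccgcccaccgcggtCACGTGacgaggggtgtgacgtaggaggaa
Rab23, chr1:33719648-33719713, plus strand: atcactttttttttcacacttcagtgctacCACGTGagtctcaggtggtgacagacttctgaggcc
Rab27a, chr9:73063898-73063937, plus strand: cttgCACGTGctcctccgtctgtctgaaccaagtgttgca
Rab5a, upstream match, chr17:53478984-53479034, plus strand: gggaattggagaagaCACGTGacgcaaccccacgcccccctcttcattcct
Rab5a, downstream match, chr17:53479109-53479174, plus strand: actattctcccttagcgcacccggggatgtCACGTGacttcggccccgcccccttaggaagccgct
The motif ended 24 bases before the start site in Rab21, 40 in Rab20, 89 and 229 in Rab5a, 212 in Rab23 and 240 in Rab27a. The start used for Rab27a was not found in its GENCODE transcripts, unlike those of the other 4.

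Of 8 tested early endosome Rabs 5 were higher, where 7.29% of all tested genes were, and none was lower by edgeR, DESeq2 or limma-voom, also at an unadjusted p under 0.05. Their median log2 change was 0.21. All but Rab20 lay at or above 5 log2 CPM, where 12.9% of all tested genes were higher. The roles used here and below were set with earlier results of these data known, so their counts are description only. Rab5a, Rab5b and Rab5c drive the fusion of incoming endocytic vesicles. Rab5b (ENSMUSG00000000711, chromosome 10) had 92.7, 90.1 and 95.4 CPM in libraries labelled male and 117.5, 115.4 and 117.8 CPM in those labelled female. All 3 of the latter lay above the former by far more than the spread within either group (log2 0.33, SE 0.060, adjusted p = 0.000586 by edgeR). Rab5c (ENSMUSG00000019173, chromosome 11) had 185.8, 187.9 and 183.6 against 217, 213.3 and 216.1 CPM, and Rab5a (ENSMUSG00000017831, chromosome 17) had 59.8, 64.5 and 60.04 against 72.5, 72.5 and 70.7 CPM. Neither set overlapped (log2 0.21, SE 0.055, adjusted p = 0.0123 for Rab5c and log2 0.23, SE 0.065, adjusted p = 0.0226 for Rab5a, by edgeR). Rab5c lost its call without male replicate 1 (adjusted p = 0.0594), 2 (0.0542) or 3 (0.0789). Rab5a lost its call without male replicate 1 (0.101), male replicate 3 (0.107), female replicate 1 (0.0551) or female replicate 2 (0.0755).

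Rab20, a Rab of phagosome and endosome maturation whose window is shown above, was the most changed of this role. It had 6.50, 4.79 and 5.84 CPM in libraries labelled male and 8.94, 9.53 and 12.0 CPM in those labelled female (ENSMUSG00000031504, chromosome 8; log2 0.83, SE 0.17, adjusted p = 0.00166 by edgeR). An antisense-strand long non-coding RNA gene, E230013L22Rik, covers 25.6% of its exon length, and reads of the pair cannot be told apart without strand. Rab21, which carries integrins into endosomes, had 187.4, 191.2 and 199.2 against 218.4, 221.5 and 212.5 CPM (ENSMUSG00000020132, chromosome 10; log2 0.18, SE 0.057, adjusted p = 0.0437 by edgeR). Its groups did not overlap, but the call held without female replicate 3 and was lost without any 1 of the other 5 libraries, with adjusted p from 0.0895 to 0.18, and with upper-quartile factors (0.0661). Rab31, of Golgi to endosome traffic, had 107 ± 9.22 against 122.9 ± 8.07 CPM (SD, n = 3) and missed the threshold (adjusted p = 0.062 by edgeR). It passed with no filter on low counts (0.0207) and without male replicate 1 (0.0381) or female replicate 3 (0.0065). Rab14 (log2 0.03) and Rab22a (log2 0.07) of the same compartments did not pass.

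**Figure D3:**
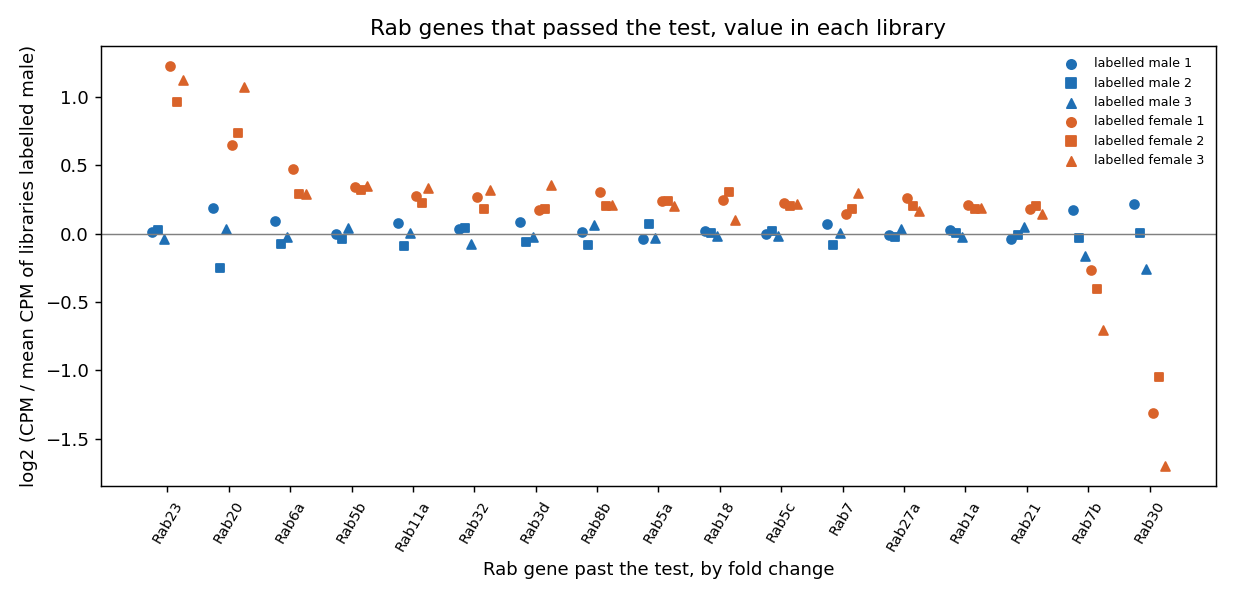
The 17 Rab genes past the test, each library as the log2 ratio of its CPM to the mean of the libraries labelled male, ordered by fold change; colour marks the label and shape the replicate number. The groups do not overlap in any of the 17, and Rab23, Rab20 and Rab30 stand farthest from 0.

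Of 11 tested Rabs of the endoplasmic reticulum and Golgi 3 were higher and 1 lower, where 7.29% and 6.62% of all tested genes were, with a median log2 change of -0.10. Rab6a, of transport from the Golgi back to the endoplasmic reticulum, had 167.7, 149.6 and 155.1 CPM in libraries labelled male and 218.4, 192.3 and 192.4 CPM in those labelled female (ENSMUSG00000030704, chromosome 7; log2 0.35, SE 0.066, adjusted p = 0.000908 by edgeR). The lowest library labelled female lay above the highest labelled male. Exons of Mrpl48 on the opposite strand cover 19% of its exon length. Rab1a, which carries cargo from the endoplasmic reticulum to the Golgi, had 205, 202.3 and 198 against 233, 228.1 and 229.2 CPM (ENSMUSG00000020149, chromosome 11; log2 0.19, SE 0.055, adjusted p = 0.0256 by edgeR). Rab18, linked to lipid droplets and the endoplasmic reticulum, had 64.6, 63.8 and 62.9 against 75.7, 78.7 and 68.2 CPM (ENSMUSG00000073639, chromosome 18; log2 0.22, SE 0.068, adjusted p = 0.0363 by edgeR). Neither pair of groups overlapped. Both calls held without female replicate 3 and were lost without any 1 of the other 5 libraries, with adjusted p from 0.0573 to 0.131 for Rab1a and from 0.0914 to 0.183 for Rab18. With upper-quartile factors Rab18 did not pass either (0.0524). Rab2a, among the 5 highest genes per kilobase, had 134.8, 134.3 and 139.8 against 149.2, 148.5 and 159 CPM, groups that did not overlap, and did not pass (log2 0.16, SE 0.059, adjusted p = 0.0764 by edgeR).

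Rab30, a Golgi Rab, was the most reduced member. It had 5.82, 5.02 and 4.17 CPM in libraries labelled male and 2.01, 2.42 and 1.54 CPM in those labelled female (ENSMUSG00000030643, chromosome 7; log2 -1.33, SE 0.24, adjusted p = 0.000720 by edgeR), 2.51-fold lower. The counts behind these values were 103, 88 and 70 against 38, 48 and 31. Rab36 (log2 -0.42, adjusted p = 0.143) and Rab6b (log2 -0.63, adjusted p = 0.101), both rare members with groups that did not overlap, did not pass by edgeR. Rab33b, which binds the autophagy protein Atg16l1, had a log2 change of -0.10, and Rab1b of 0.02. Rab43 (log2 -0.15) did not pass. Of its exon length 75.4% is shared with another annotated gene on the same strand, so its counts are uncertain.

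Of 10 tested Rabs of late endosomes, lysosomes and autophagy 2 were higher and 1 lower (all tested genes, 7.29% and 6.62%), with a median log2 change of -0.01. Rab7, the abundant regulator of fusion with lysosomes, had 313.5, 281.6 and 300.0 CPM in libraries labelled male and 329.1, 338.3 and 367.3 CPM in those labelled female (ENSMUSG00000079477, chromosome 6; log2 0.21, SE 0.061, adjusted p = 0.0259 by edgeR). The groups lay close, with 313.5 CPM the highest of the former and 329.1 CPM the lowest of the latter. Rab7 lost its call without male replicate 2 (adjusted p = 0.16) or male replicate 3 (0.103). Rab32, of lysosome-related organelles, had 119.8, 120.5 and 111.1 against 140.7, 132.9 and 145.8 CPM, without overlap (ENSMUSG00000019832, chromosome 10; log2 0.25, SE 0.062, adjusted p = 0.00834 by edgeR), and missed the threshold without male replicate 3 (0.0798). Its close relative Rab38 had a log2 change of 0.20 at 5.74 ± 0.883 and 6.597 ± 1.09 CPM (SD, n = 3) and did not pass (adjusted p = 0.506 by edgeR).

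Rab7b, a late endosome Rab found in monocytes and dendritic cells, was lower, with 23.7, 20.5 and 18.8 CPM in libraries labelled male and 17.4, 15.9 and 12.9 CPM in those labelled female (ENSMUSG00000052688, chromosome 1; log2 -0.45, SE 0.12, adjusted p = 0.0175 by edgeR). The groups did not overlap, though 18.8 and 17.4 CPM lay close, and Rab7b did not pass without male replicate 1 (adjusted p = 0.115). Markers of other cells differed between the same groups. Of 7 dendritic cell markers 4 were lower, with sums of 269.5 to 282.4 CPM in libraries labelled male and 188.7 to 193.1 CPM in those labelled female, and of 6 B cell markers 5 were lower, with sums of 225.2 to 282.0 and 135.6 to 190.3 CPM. Of 8 monocyte and macrophage markers 2 were higher and none lower by edgeR, DESeq2 or limma-voom, also at an unadjusted p under 0.05, with sums of 915.1 to 983.3 and 1144 to 1282 CPM. No marker of the 3 lists was at 0, and their part in the lower values of Rab30 and Rab7b was not tested. Rab12 (log2 -0.19), Rab29 (log2 -0.08), Rab24 (log2 -0.03), Rab9 (log2 0.01), Rab39 (log2 0.01) and Rab34 (log2 -0.78, at 12 counts or fewer per library) did not pass. Rab24 shares 62.4% of its exon length with Prelid1 on the opposite strand, so its level is uncertain.

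Of 8 tested Rabs of recycling and delivery to the cell surface 2 were higher (7.29% of all tested genes) and none lower by edgeR, DESeq2 or limma-voom, also at an unadjusted p under 0.05. Rab11a, the marker of recycling endosomes, had 53.7, 47.8 and 50.9 CPM in libraries labelled male and 61.3, 59.4 and 64.1 CPM in those labelled female (ENSMUSG00000004771, chromosome 9; log2 0.28, SE 0.070, adjusted p = 0.0106 by edgeR). Rab8b, of transport to the plasma membrane, had 177.1, 165.4 and 183.6 against 216.4, 202.0 and 202.6 CPM (ENSMUSG00000036943, chromosome 9; log2 0.24, SE 0.060, adjusted p = 0.0106 by edgeR). Neither set of groups overlapped, and neither call held without male replicate 2 (adjusted p = 0.0791 for Rab11a and 0.0979 for Rab8b). Rab10, of surface delivery, had 73.0 ± 0.989 and 82.4 ± 4.31 CPM (SD, n = 3; adjusted p = 0.0741 by edgeR) and passed without female replicate 3 (0.00763). Rab8a (log2 0.10), Rab11b (log2 0.09), Rab35 (log2 0.05), Rab4a (log2 0.06) and Rab13 (log2 -0.08) did not pass.

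Of 6 tested Rabs of granule secretion 2 were higher (7.29% of all tested genes), and none was lower by edgeR, DESeq2 or limma-voom, with 1 at an unadjusted p under 0.05. Rab27a, which docks granules at the plasma membrane, had 249.6, 246.1 and 257.0 CPM in libraries labelled male and 300.0, 288.6 and 281.3 CPM in those labelled female (ENSMUSG00000032202, chromosome 9; log2 0.21, SE 0.056, adjusted p = 0.0160 by edgeR). Rab3d, a Rab of secretory granules, had 168.0, 152.1 and 156.2 against 179.4, 180.0 and 202.9 CPM (ENSMUSG00000019066, chromosome 9; log2 0.24, SE 0.064, adjusted p = 0.0159 by edgeR). Groups did not overlap for either gene. Rab27a lost its call without male replicate 1 (adjusted p = 0.0764), 2 (0.0959) or 3 (0.0561) or female replicate 1 (0.0599), and the Rab3d call without male replicate 2 or 3 (0.101 and 0.0912).

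Rab44, the member with the most counts, had 428.3, 440.2 and 455.7 CPM in libraries labelled male and 385.8, 360.5 and 431.8 CPM in those labelled female (ENSMUSG00000064147, chromosome 17), and the groups overlapped, since female replicate 3 lay above male replicate 1. It did not pass (log2 -0.17, SE 0.064, adjusted p = 0.0888 by edgeR), and without female replicate 3 it passed (log2 -0.24, adjusted p = 0.000287). The ratio of Rab27a to Rab44 per kilobase, which does not depend on library size, was 0.761, 0.730 and 0.736 in libraries labelled male and 1.02, 1.05 and 0.850 in those labelled female. The ratio of Rab3d to Rab44 was 0.474, 0.417 and 0.414 against 0.561, 0.603 and 0.567. The ratio of Rab37 to Rab44 was 0.0385, 0.0315 and 0.0289 against 0.0378, 0.0444 and 0.0428, and its groups overlapped, while those of the other two ratios were separate. These ratios were chosen after the values were seen and were not tested. Rab37, of mast cell and other secretory granules (log2 0.17), Rab3a (log2 -0.02) and Rab27b (log2 -0.61, at 11 to 37 counts per library) did not pass. Genes of mast cells and basophils were present, with sums of 231.0 to 263.6 CPM in libraries labelled male and 215.2 to 247.9 CPM in those labelled female, most of it from the basophil protease Mcpt8 (181.1 and 159.5 CPM), with the mast cell carboxypeptidase gene Cpa3 at 35.8 and 36.1 CPM. The mast cell protease genes Tpsb2 and Mcpt4 were at 0 counts, and Cma1 was at 1 to 6 counts per library. Of 4 such markers tested none was higher or lower by edgeR or limma-voom and 1 was lower by DESeq2, the same number as at an unadjusted p under 0.05.

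Of 6 tested atypical and Rab-like members only Rab23 was higher (7.29% of all tested genes), with the largest increase of the 49. Rab23, known for restraining Hedgehog signalling and for its place at the primary cilium, had 3.22, 3.25 and 3.10 CPM in libraries labelled male and 7.46, 6.20 and 6.94 CPM in those labelled female (ENSMUSG00000004768, chromosome 1; log2 1.10, SE 0.19, adjusted p = 0.000312 by edgeR). The counts were 57, 57 and 52 against 141, 123 and 140, and the lowest of the latter group lay far above the highest of the former. Rab28 (log2 0.16), Rab40c (log2 0.14), Rabl3 (log2 0.06), Rabl2 (log2 0.03) and Rabl6 (log2 -0.15) did not pass.

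**Figure D4:**
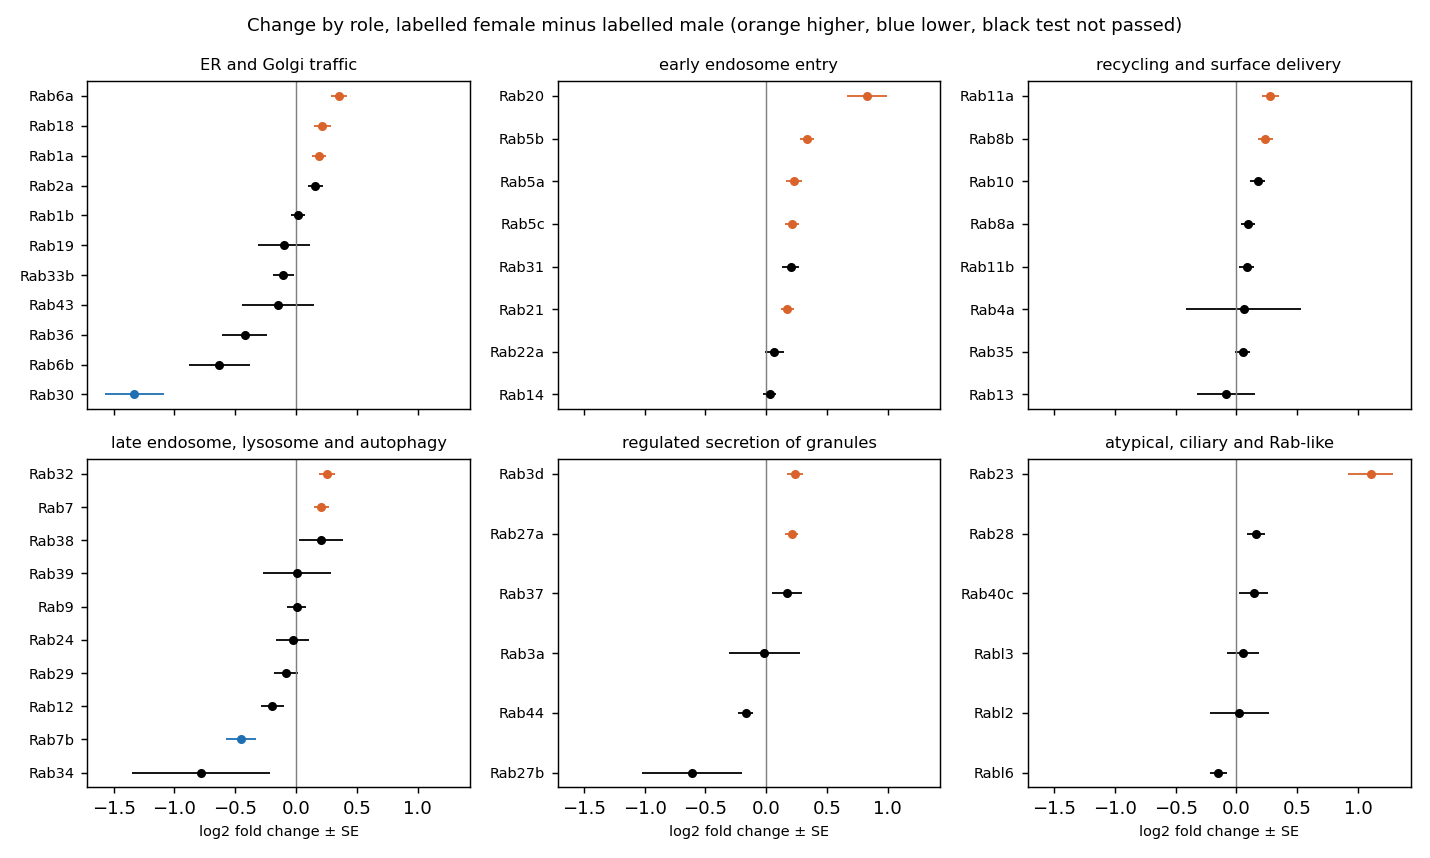
Log2 fold change with its SE (libraries labelled female minus those labelled male) of the 49 tested Rab genes, grouped by role. The roles were set with earlier results of these data known. Members past the test are orange (higher) or blue (lower); the early endosome panel holds 5 orange points and no blue one, and SEs are widest for rare genes such as Rab34 and Rab4a.

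Close relatives were set against each other within each library, as log2 ratios per kilobase that do not depend on library size, for 11 pairs. The groups were separate in 6 pairs. In each of these the first gene named was itself called higher, so the ratios in part restate those calls and add no separate support. The ratio of Rab11a to Rab11b was 0.07 ± 0.061 in libraries labelled male and 0.26 ± 0.042 in those labelled female, and that of Rab1a to Rab1b was 0.19 ± 0.022 and 0.36 ± 0.060. The ratio of Rab6a to Rab6b was 5.82 ± 0.247 and 6.80 ± 0.400, and that of Rab7 to Rab7b was 4.66 ± 0.145 and 5.32 ± 0.307. Rab8b to Rab8a (0.31 ± 0.070 and 0.46 ± 0.098) and Rab5b to Rab5c (-1.94 ± 0.058 and -1.82 ± 0.0058) completed the 6. Each had an exact two-sided permutation p of 0.1, the smallest that 3 against 3 allows, and 0.183 after Benjamini-Hochberg adjustment over the 11 pairs, so none could pass. The ratio of Rab5a to Rab5c was -2.86 ± 0.048 and -2.85 ± 0.028 and overlapped (exact p = 0.8). The groups overlapped in the other 4 pairs as well, Rab27a to Rab27b, Rab3d to Rab3a, Rab32 to Rab38 and Rab22a to Rab31. The sources used here do not say how reads shared by related copies were counted.

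Most regulators of Rab proteins did not pass. Of 34 tested exchange factors 3 were higher and 3 lower (median log2 change -0.0027), near the shares of all tested genes (7.29% higher and 6.62% lower). Dennd3, which activates Rab12, was higher at 43.8 ± 3.73 against 31.3 ± 2.32 CPM (SD, n = 3; log2 0.48, adjusted p = 0.000549 by edgeR), and Rin2, which activates Rab5, at 60.8 ± 2.54 against 46.1 ± 0.980 CPM (log2 0.40, adjusted p = 0.000438 by edgeR). Rab3il1 was higher (log2 0.64, adjusted p = 0.0377 by edgeR), a call that held only without female replicate 2 among the fits that left out 1 library, with adjusted p from 0.0583 to 0.139 in the other 5. Als2cl was lower (log2 -0.996, adjusted p = 0.0176 by edgeR), which was lost without male replicate 1 (0.0869), male replicate 2 (0.0797) or female replicate 2 (0.0797). Lower exchange factors numbered 1 without male replicate 1 and 5 without female replicate 3.

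Of 34 tested genes listed as GTPase-activating proteins 3 were higher and 1 lower (median log2 change 0.02), where 7.29% and 6.62% of all tested genes were. The listing does not show that each product acts on a Rab. Tbc1d23, which tethers endosome vesicles at the Golgi, was higher at 65.9 ± 3.93 against 52.2 ± 1.58 CPM (SD, n = 3; log2 0.34, adjusted p = 0.00222 by edgeR). Tbc1d15, which acts on Rab7, and Tbc1d14, which binds Rab11, were higher by a log2 change of 0.22 each (adjusted p = 0.0392 and 0.0363 by edgeR). Both calls held without female replicate 3 and were lost without any 1 of the other 5 libraries (adjusted p from 0.109 to 0.174 for Tbc1d15 and from 0.0697 to 0.156 for Tbc1d14) and with upper-quartile factors (0.0516 and 0.0518), so that 1 gene was higher in each of those fits. Rabgap1l was lower (log2 -0.23, adjusted p = 0.0204 by edgeR), a call lost without male replicate 2 or 3 or female replicate 1 (0.0932, 0.123 and 0.0572), and 4 were lower without female replicate 3.

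Of 7 genes that prenylate Rabs or carry them to membranes 2 were higher (7.29% of all tested genes) and none lower by edgeR, DESeq2 or limma-voom, also at an unadjusted p under 0.05. Chm, the escort protein that presents new Rabs for prenylation, was at 37.9 ± 3.62 against 27.1 ± 3.00 CPM (SD, n = 3; log2 0.48, adjusted p = 0.00163 by edgeR). Gdi2, which keeps GDP-bound Rabs soluble, was at 594.3 ± 6.92 against 530.1 ± 11.6 CPM (log2 0.16, adjusted p = 0.0465 by edgeR). The Gdi2 call held without female replicate 3, was lost without any 1 of the other 5 libraries (adjusted p from 0.0964 to 0.21), and was lost with upper-quartile factors (0.0757) and a filter of 10 CPM (0.0529). Of 3 tested Rab kinase and phosphatase genes 1 was higher (7.29% of all tested genes). None was lower by edgeR, DESeq2 or limma-voom, with 1 at an unadjusted p under 0.05. Lrrk2, the kinase that phosphorylates several Rabs, was higher at 170.1 ± 15.5 against 140.5 ± 5.74 CPM (log2 0.28, adjusted p = 0.00828 by edgeR), and missed the threshold without male replicate 2 (0.066) or female replicate 1 (0.0544). The kinase gene Lrrk1 (log2 -0.22, adjusted p = 0.0957 by edgeR) and the phosphatase gene Ppm1h (log2 0.01) did not pass.

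Of 43 tested effectors 4 were higher and 2 lower (median log2 change -0.04), where 7.29% and 6.62% of all tested genes were. The Rab11 partners Rab11fip4 and Rab11fip1 were higher, at 17.9 ± 0.334 against 12.4 ± 0.262 CPM and at 51.5 ± 5.20 against 39.2 ± 2.80 CPM (SD, n = 3; log2 0.53 and 0.39, adjusted p = 0.00210 and 0.00299 by edgeR). Rilpl2, which binds phosphorylated Rab8 and Rab10, was lower at 77.5 ± 7.12 against 100.3 ± 4.90 CPM (log2 -0.37, adjusted p = 0.00108 by edgeR). Sytl3, a synaptotagmin-like partner of Rab27, was lower (log2 -0.62, adjusted p = 0.0399 by edgeR), which was lost without male replicate 1, 2 or 3 or female replicate 1 (0.115, 0.0983, 0.0699 and 0.178). Higher effectors numbered 2 without any 1 of male replicates 1 and 2 and female replicates 1 and 2. Lower ones numbered 1 without any 1 of the male replicates or female replicate 1, and 4 when female replicate 3 was left out.

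SNARE proteins fuse the vesicle with its target membrane. Of 24 tested SNARE and fusion genes 2 were higher and 2 lower by edgeR, near the shares of all tested genes (7.29% and 6.62%). DESeq2 and limma-voom each had 3 higher and 1 lower. Snap23, the plasma membrane SNARE used in granule release, was at 99.2 ± 3.33 against 75.5 ± 2.48 CPM (SD, n = 3; log2 0.39, adjusted p = 0.000168 by edgeR), and Stx11 at 123.3 ± 15.3 against 82.3 ± 4.85 CPM (log2 0.58, adjusted p = 2.13e-05 by edgeR). Stx16, of the Golgi, was lower (log2 -0.22, adjusted p = 0.0161 by edgeR), a call lost without male replicate 2 or 3 or female replicate 1 (0.0940, 0.0790 and 0.0539). Stx4a was lower (log2 -0.23, adjusted p = 0.0479 by edgeR), a call lost by DESeq2 (0.0518) and limma-voom (0.0525) and without male replicate 1 or 3 or female replicate 1 or 2 (0.141, 0.241, 0.184 and 0.170). Without female replicate 3, 4 were higher. Of 8 exocyst subunits none was higher or lower (all tested genes, 7.29% and 6.62%) by edgeR, DESeq2 or limma-voom, 2 were higher at an unadjusted p under 0.05, and 2 were higher and 1 lower without female replicate 3.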

How the data were processed

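The labels' protocols name Trizol extraction, poly-A selection and cDNA synthesis from random primers, and no step that marks strand. Per the submitters' processing notes, cutadapt 1.15, HISAT2 2.0.5 and GRCm39 were used, with no role or order stated. Each file holds gene counts as deposited, unnormalized whole numbers for 21955 identifiers. The sources used here do not name the counting tool.

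Symbols, gene types and exon lengths came from GENCODE M21 of the older build GRCm38, which named 21898 identifiers and supplied names, lengths and exon overlaps only. The test was edgeR 4.0.16 (R 4.3.3) on TMM-scaled libraries, after filterByExpr at a minimum count of 10, as a quasi-likelihood fit of the group alone. P-values were adjusted over 11903 genes by Benjamini-Hochberg, with a threshold of 0.05. SEs follow from each log2 change and its F value. The pipeline was tested on simulated data whose planted changes were larger than those of most called members. That test did not address changes as small as theirs. DESeq2 1.42.0 and limma-voom 3.58.1 were alternatives. Members, roles and lists were chosen with earlier results of these data known. Per-library values were given for members past the test and the 5 highest per kilobase, and each pathway list named up to 4 called genes with the largest change. Other genes were named after their values were seen. No pair of libraries of 1 group agreed within sampling noise, and each was counted as 1 replicate. That check cannot tell separate animals from separate preparations of the same RNA, so the spread may still be technical.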

Additional observations from a re-analysis of the deposited data

How the results depend on the processing

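All 17 called members were also called with DESeq2 size factors, DESeq2, limma-voom, no filter, a filter of 10 counts in 3 libraries and without mitochondrially encoded genes; Rab18 and Rab21 were lost with upper-quartile factors, which left 13 higher members. No called member changed direction under any of the 16 alternative settings in which it was tested. At an adjusted p under 0.01, 410 genes were higher and 410 lower, among them 5 members higher (Rab23, Rab20, Rab6a, Rab5b and Rab32) and 1 lower (Rab30). With at least 10 CPM in 3 libraries, 1 member was lower and the median log2 fold change was 0.15, as fewer rare members are tested there. Leaving out 1 library gave 439 to 1439 higher and 467 to 1269 lower genes, 6 to 17 higher and 1 to 3 lower members, and medians of 0.052 to 0.13. None of the 3 Rab-like genes passed the test, so the member counts of 15 and 2 could not change when they were left out. Rare members limit what can be seen: at a few counts per library the SE of Rab4a was 0.47 and that of Rab34 was 0.57 on the log2 scale.

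Replicate numbers are shared by both groups, and the labels do not say that they pair libraries. Deviations from the group means of same-numbered libraries correlated across genes at -0.03, 0.09 and 0.08. Those of differently numbered libraries correlated at -0.15 to 0.09. With the replicate number as a block, 1007 genes were higher and 914 lower, with 16 members higher and 3 lower (Rab31 and Rab44 were added), and a median log2 change of 0.07.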
